A study of Arabidopsis thaliana with 24 samples.

Results

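The starch sheath of the Arabidopsis thaliana stem is the innermost layer of the cortex, next to the vascular tissue, and its response to excision and 2 days of culture without added hormone was read from 6 of the 24 arrays of the study. All 22746 of the 22810 probe sets that are not array controls were tested, and no probe set was chosen by its value. All plants were wild type, grown for 3 weeks in short days with 8 h of light and then in long days with 16 h of light. The untreated group held starch sheath captured by laser from intact stems (3 arrays). The medium group held starch sheath from stem fragments of 1.5 cm, cut 2.5 cm above the stem base and kept for 2 days on split plates with Murashige and Skoog (MS) medium, the basal salt medium of plant tissue culture, without auxin (3 arrays). The captured cells came from the central 3 mm of each fragment, which did not touch the medium. Starch sheath kept for 2 days on medium with NAA, a synthetic auxin, and starch sheath kept for 5 days on medium alone (3 arrays each) served to ask whether a change at 2 days on medium differed with auxin or with time. The wider study asked which genes rise where auxin induces a cambium between the vascular bundles.

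The starch sheath is the shoot counterpart of the root endodermis. Its cells carry starch-filled plastids that sediment with gravity, and the layer lies where an interfascicular cambium can form once auxin is supplied. Cutting a stem stops the flow of auxin from the shoot tip, wounds the tissue and ends the supply of sugar and water through the vascular tissue. Growing and dividing plant cells are known to make many ribosomes. Each cytosolic ribosome is built from a large and a small subunit, with most of its proteins encoded by small families of near-identical genes, and its assembly takes place in the nucleolus with the help of processing factors that are not part of the finished particle.

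A pair of the untreated sheath arrays stood apart from the rest. The SD of the log2 values over all probe sets was 1.47 on untreated replicate 1 but 1.00 and 0.96 on replicates 2 and 3, against 1.29 to 1.38 on the medium arrays. Values above 6 were found for 1983, 644 and 532 probe sets on the untreated arrays and for 1446 to 1767 on the medium arrays. Replicates correlated at 0.763 to 0.877 in the untreated group and at 0.938 to 0.960 in the medium group. The 3' signal of the GAPDH control exceeded its 5' signal by 3.93 to 4.83 in the untreated group and by 6.71 to 7.43 in the medium group, while the 5' signal stayed between 2.50 and 2.73. The main counts, most group medians and many of the genes described are therefore given also without the 3 narrow arrays of the study. These were untreated sheath replicates 2 and 3 and untreated stem replicate 3. In that fit a single untreated sheath array remains and is assumed to vary like the other groups. The part of these array differences in the results was not tested otherwise.

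After 2 days on medium 904 probe sets were higher than in the untreated sheath, 3.97% of all tested, and 220 were lower, 0.967% of all tested (limma, Benjamini-Hochberg adjusted p under 0.05). At an unadjusted p under 0.05 there were 4472. The median log2 change of the higher probe sets was 1.71 (range 0.44 to 6.34), and 767 of the 904 changed at least 2-fold. The median of the lower ones was -0.90 (range -3.61 to -0.38), and 94 of the 220 changed at least 2-fold. On 865 of the higher and 203 of the lower probe sets the medium and untreated arrays did not overlap. Over all probe sets the median log2 change was -0.07, all 3 medium arrays lay above all 3 untreated arrays on 9.59%, and they lay below them on 7.32%. No detection calls were used, so levels below 3.09, the middle of all values on the arrays, may be background. A fold is printed below only where the mean of each group was at or above that level, and elsewhere the log2 change, which is then no measured ratio of RNA.

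The balance of higher and lower calls rested on the untreated arrays used. Without the 3 narrow arrays 335 probe sets were higher (1.47%) and 867 lower (3.81%), so the share of calls that were higher moved from 80.4% to 27.9%. Without untreated replicate 1, the broad array, 2055 were higher (9.03%) and 2321 lower (10.2%). Quantile normalization called 5.03% of probe sets higher and 2.73% lower, and cyclic loess 2.82% and 2.15%. The share of higher calls was 64.9% and 56.7% in these fits, and 51.8% with array weights. Of the 904 higher calls 240 remained without the narrow arrays and 887 without untreated replicate 1; of the 220 lower calls 132 and 182 remained. In both fits 233 of the higher calls, 110 of them with a single named gene, and 97 of the lower calls, 45 with a named gene, were kept. Among the 65 called genes that the naming rule picked for description 44 kept their call without the narrow arrays. Since these are bulk samples, fewer cells of a type and less RNA per cell cannot be told apart in any of the changes that follow.

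Genes of the cytosolic ribosome were the main group that was higher on medium. Of 123 measured genes for cytosolic ribosomal proteins 72 rose (58.5%, against 3.97% of all probe sets), 0 fell and 51 did not pass. Their median log2 change was 1.86, against -0.07 over all probe sets, and the change was above 0 for 116 of the 123. The median level of the 123 genes was 4.90, 4.3 and 4.22 on the untreated arrays and 6.09, 6.54 and 7.02 on the medium arrays. All medium medians were above the untreated ones, and the narrow pair lay lowest. All 3 medium arrays exceeded all 3 untreated arrays for 90 of the 123 genes, against 9.59% of all probe sets, and exceeded untreated replicate 1 alone for 112 of them, against 38.1%. Without the narrow arrays 37 rose and 1 fell, with a median change of 1.29 against 0.06 over all probe sets. The gene that fell there, AT1G36240 of the L30 family, was singled out after its values were seen. Quantile normalization gave 81 rises and cyclic loess 56, each with 0 falls. These shares also differed with the level of a probe set, taken as its mean over all arrays, the cultured ones included. A gene can reach a given level through the arrays where it had risen, so the split is not independent of the rise. Among the 1479 probe sets with a mean of at least 6 over all arrays 24.3% were higher and 0.27% lower, with a median change of 0.89, and the 65 ribosomal protein genes at that level gave 56 rises (86.2%) and a median of 2.59. In the fit that leaves out the narrow arrays 7.3% of the 1479 were higher and 5.88% lower, with a median of -0.09, against 29 rises (44.6%) and a median of 1.62 for the 65. Of the 58 ribosomal protein genes under that level 16 rose (27.6%), against 2.56% of all probe sets under it. With any 1 array left out 51 to 81 rose, and with only the 6 compared arrays, where the spread rests on those arrays alone, 18 did (0.642% of all probe sets were higher and 0.0352% lower there).

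**Figure D1:**
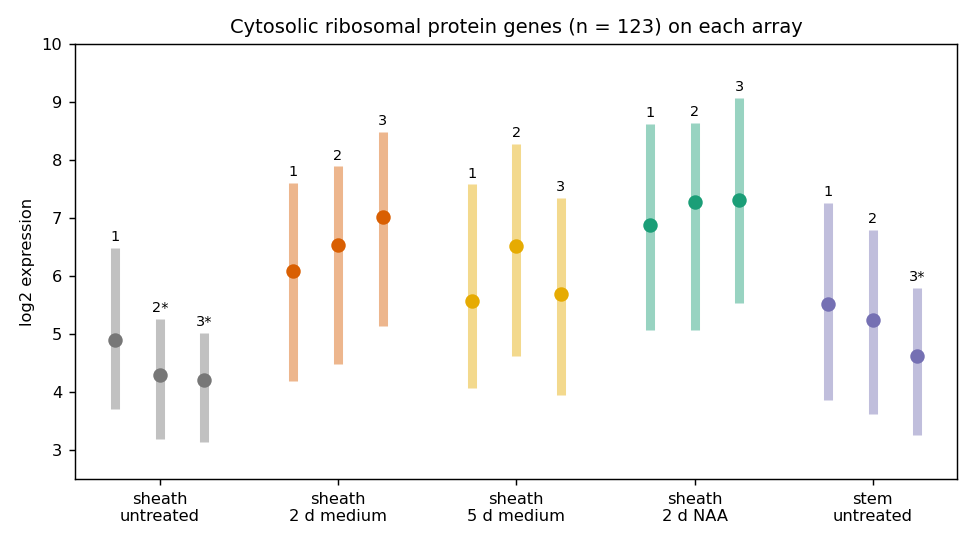
Median (point) and interquartile range (bar) of the log2 expression of 123 cytosolic ribosomal protein genes on each array of 5 groups; numbers are replicates and a star marks the 3 narrow arrays. The medians were 4.22 to 4.90 in untreated sheath, 6.09 to 7.02 after 2 days on medium, 5.58 to 6.52 after 5 days on medium, 6.89 to 7.32 after 2 days on NAA and 4.62 to 5.52 in untreated stem.

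Both subunits shared the rise. In the large subunit 44 of 77 genes rose and in the small subunit 28 of 46, with median log2 changes of 1.88 and 1.86. Without the narrow arrays the counts were 20 and 17. AT1G77940, a gene of the L30 family, stood at 5.99, 5.09 and 5.25 on the untreated arrays and at 9.43, 9.56 and 9.51 on the medium arrays. No value of either group came near the other, and the medium replicates were almost equal. Its level was 16.6-fold higher on medium (log2 change 4.05 ± 0.30 SE, n = 3 per group, limma adjusted p = 3.85e-07), and 3.51 higher without the narrow arrays (adjusted p = 9.15e-05).

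AT3G09200, one of the genes for the stalk protein P0, was measured at 7.46, 5.39 and 5.06 untreated and at 10.08, 9.98 and 9.82 on medium. Here the broad untreated array lay well above the narrow pair. The rise was 15.8-fold (3.99 ± 0.48 SE, adjusted p = 9.74e-05) and fell to 2.49 on the log2 scale without the narrow arrays (adjusted p = 0.0023). The same order held for a pair of L7 genes. AT2G44120 went from 5.04, 3.13 and 3.54 to 7.51, 8.15 and 8.33 (17.1-fold, 4.1 ± 0.58 SE, adjusted p = 0.000359). Its log2 change was 2.96 without the narrow arrays. AT2G01250 went from 6.70, 4.22 and 3.98 to 8.37, 8.68 and 8.98 (13.1-fold, adjusted p = 0.000783), with a change of 1.98 without the narrow arrays (adjusted p = 0.0233).

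AT3G07110 of the L13a family rose 12.8-fold (adjusted p = 0.000533) and AT3G16080 of the L37 family 12.6-fold (adjusted p = 0.000317). On the log2 scale these rises were 3.68 and 3.65, and they fell to 2.1 and 2.72 without the narrow arrays. AT1G52300, another L37 gene, rose from 9.81, 8.05 and 7.81 to 12.06, 12.08 and 11.95 (11.1-fold, adjusted p = 8.9e-05). AT4G13170 of the L13a family had a smaller rise from a narrow range, from 4.48, 3.79 and 4.18 to 6.17, 6.06 and 6.45 (4.2-fold, adjusted p = 3.48e-05), and kept its call in all 14 other fits that were run.

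In the small subunit AT3G04840, an S3a gene, stood at 5.29, 4.49 and 4.59 untreated and at 7.58, 7.96 and 8.33 on medium (8.97-fold, 3.16 ± 0.31 SE, adjusted p = 2.37e-05). AT3G47370, an S20 gene, was the most even of the untreated values, at 5.57, 5.36 and 5.49, and reached 7.64, 8.61 and 9.12 (7.9-fold, adjusted p = 3.77e-05). Leaving out the narrow arrays therefore left its change at 2.88 against 2.98 (adjusted p = 0.00206). AT3G10610 of the S17 family went from 3.69, 3.42 and 3.38 to 6.43, 6.54 and 6.77 (8.49-fold, adjusted p = 4.24e-05), and AT1G15930 of the S12 family from 8.04, 6.25 and 6.63 to 10.57, 10.12 and 9.73 (8.94-fold, adjusted p = 2.65e-05). A total of 17 ribosomal protein genes kept their call in each of the 14 other fits, 8 of the large and 9 of the small subunit, as did 94 of all probe sets tested.

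**Figure D2:**
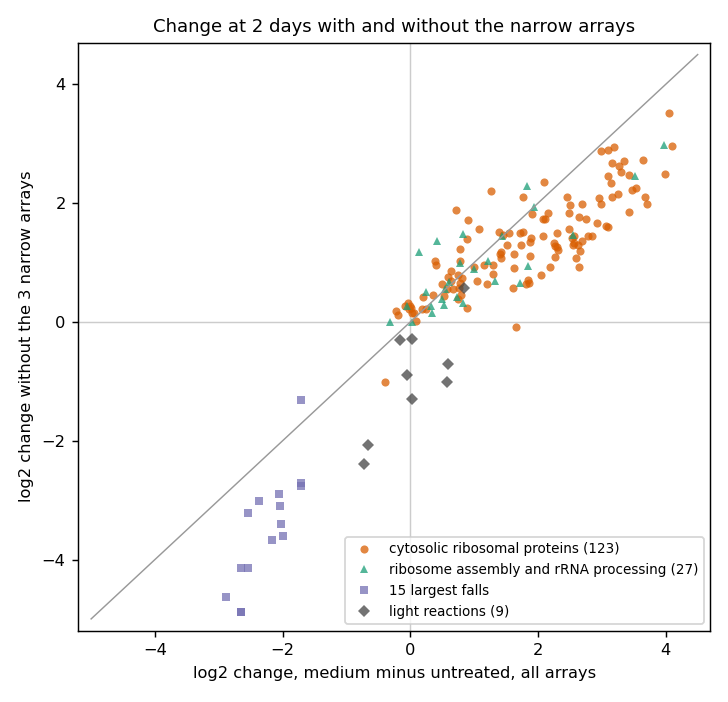
Log2 change at 2 days on medium with all arrays (x axis) and without the 3 narrow arrays (y axis), 1 point a gene, with a line where both are equal. Most ribosomal protein genes stayed above 0 but below the line (median 1.86 against 1.29), while the 15 largest falls, 1 gene excepted, became larger and the light reaction genes moved from a median of 0.02 to -0.89.

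Of 27 measured genes for ribosome assembly and the processing of ribosomal RNA 11 rose (40.7%, against 3.97% of all probe sets), 0 fell and 16 did not pass, with a median log2 change of 0.77. Without the narrow arrays 5 rose, with a median of 0.69. The count was 6 without medium replicate 1, 5 without medium replicate 3, 4 and 5 without untreated replicates 2 and 3, and 6 after cyclic loess. This list was drawn up after some of its values had been seen. AT4G12600, a gene of the L7Ae family of RNA-binding proteins, was at 4.43, 2.81 and 3.04 untreated and at 7.19, 6.98 and 8.05 on medium (15.7-fold, 3.98 ± 0.57 SE, adjusted p = 0.000375). Its log2 change was 2.97 without the narrow arrays. AT4G15770, which resembles the yeast large-subunit factor Nip7, rose from 5.73, 3.70 and 4.59 to 8.07, 7.96 and 8.56 (11.5-fold, adjusted p = 0.00011), a change of 2.46 without the narrow arrays (adjusted p = 0.000783).

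AT2G40360, the gene for the nucleolar protein BOP1, went from 7.01, 4.42 and 6.32 to 8.35, 8.34 and 8.70 (5.84-fold, adjusted p = 0.00257). Its call ended without the narrow arrays (1.46, adjusted p = 0.0691). AT2G40430, related to the yeast factor Nop53, was higher on every medium array (7.30, 6.81 and 6.62) than on any untreated array (4.63, 5.57 and 5.04), and here the broad array was the lowest of the untreated values (3.56-fold, adjusted p = 0.00447; 2.28 without the narrow arrays, adjusted p = 0.0124). NRPA2, a large subunit of RNA polymerase I, which transcribes ribosomal RNA, also rose (1.43 ± 0.35 SE, adjusted p = 0.021), while NRPA1 was at 0.49 ± 0.19 SE without passing (adjusted p = 0.169). NRPA2 and NRPA1 were singled out after their values were seen.

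Organelle ribosomes and respiration were measured by fewer genes. AT3G49080, which encodes an S9 protein of the mitochondrial ribosome, rose 12.5-fold from 3.43, 3.07 and 3.5 to 7.41, 6.66 and 6.84 (3.64 ± 0.26 SE, adjusted p = 3.67e-07), and the change was 3.54 without the narrow arrays (adjusted p = 4.12e-05). Of 9 nuclear genes for plastid ribosomal proteins 2 rose, AT1G64510 (1.32 ± 0.27 SE, adjusted p = 0.00586) and AT1G29070 (1.4 ± 0.37 SE, adjusted p = 0.0324), a share of 22.2% against 3.97% of all probe sets; the median of the 9 was 0.91 and none passed without the narrow arrays. AT1G77750, annotated as an S13 ribosomal protein, rose 2.22-fold (adjusted p = 0.0325). The calls of AT1G29070 and AT1G77750 ended when medium replicates 2 or 3 or untreated replicate 2 were left out, the former also without the other narrow array or medium replicate 1 (highest adjusted p 0.18 and 0.127). AT1G77750 also did not pass without the 3 narrow arrays (1.45, adjusted p = 0.0784), after cyclic loess, with array weights or with only the compared arrays. Cpn60beta2, a subunit of the plastid chaperonin that folds imported proteins, was higher, at 7.72, 6.97 and 7.02 on medium against 3.4, 2.33 and 2.82, a mean under 3.09 (log2 change 4.39 ± 0.45 SE, adjusted p = 2.37e-05), and 3.84 higher without the narrow arrays (adjusted p = 0.00203). The cytosolic Hsc70 family gene AT3G09440 rose 2.42-fold (adjusted p = 0.00222), the only call among 13 measured chaperone genes (7.69%, against 3.97% of all probe sets).

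Of 10 measured genes of glycolysis and respiration 4 rose (against 3.97% of all probe sets), 0 fell and 6 did not pass, with a median of 1.2 (0.74 without the narrow arrays, where 1 rose). Cyclic loess and leaving out untreated replicate 3 each gave 2 rises. CYTC-1, which encodes the electron carrier cytochrome c, stood at 7.15, 5.88 and 5.61 untreated and at 9.12, 9.11 and 8.98 on medium (7.23-fold, 2.85 ± 0.39 SE, adjusted p = 0.000281), and remained higher without the narrow arrays (1.91, adjusted p = 0.0243). The others were SDH2-2 and SDH2-1, iron-sulfur subunits of succinate dehydrogenase, with 3.32- and 2.45-fold (adjusted p = 0.0104 and 0.0395), and IDH-V, a subunit of mitochondrial isocitrate dehydrogenase, with 3.02-fold (adjusted p = 0.0115). Those 3 calls ended without the narrow arrays (adjusted p = 0.0992, 0.393 and 0.301) and each also with some single array left out (SDH2-2 without untreated replicate 3, SDH2-1 without that array or medium replicates 1 or 2, IDH-V without untreated replicate 2 or medium replicate 3). HTB4, a histone H2B gene, rose 3.74-fold (adjusted p = 0.0291) and SPR1, a microtubule-associated protein of directional growth, 3.45-fold (adjusted p = 0.0262). Their changes fell to 0.60 and 0.40 without the narrow arrays. Neither passed with either narrow sheath array or medium replicate 2 or 3 alone left out. The call of SPR1 also ended without medium replicate 1 and after cyclic loess. None of the 7 measured cell division genes, the Aurora kinases AUR1, AUR2 and AUR3 among them, passed the test.

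Among probe sets with a single named gene the largest rise was that of AT4G12490, a hybrid proline-rich protein of the lipid-transfer family. It was at 2.17, 2.42 and 2.29 on the untreated arrays, all under 3.09, and at 6.64, 8.83 and 8.26 on medium. The log2 change was 5.62 ± 0.98 SE (adjusted p = 0.00195). The change was as large without the narrow arrays (5.74, adjusted p = 0.0359). AT4G22470 of the same list rose from 2.65, 3.21 and 2.52 to 6.36, 7.18 and 4.81 (log2 change 3.32 ± 0.57 SE, adjusted p = 0.00169). These were 2 of 13 measured genes of that list (15.4%, against 3.97% of all probe sets), and 0 fell.

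A further 3 of the 15 largest rises encode secreted enzymes or inhibitors, a grouping made after their values were seen. AT3G15720, a polygalacturonase family gene, rose from 4.09, 3.52 and 2.91 to 7.61, 7.60 and 8.10 (19.2-fold, adjusted p = 0.000369). AT3G54400, an aspartyl protease gene, rose from 2.09, 2.70 and 3.13 to 6.47, 6.75 and 5.41 (log2 change 3.57 ± 0.49 SE, adjusted p = 0.000298). AT2G38870, a small protease inhibitor of the PR-6 family, rose from 3.83, 3.81 and 5.09 to 6.29, 8.80 and 8.76 (13.0-fold, adjusted p = 0.00358). For all 3 the naming rule required that the medium and untreated arrays did not overlap. Their log2 changes were 3.69, 4.12 and 4.12 without the narrow arrays.

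Among class III peroxidases, secreted enzymes that act on the wall and on phenolics, 2 of 55 measured genes rose and 0 fell, a share of 3.64% against the 3.97% of all probe sets. AT5G64120, peroxidase 71, went from 2.92, 4.39 and 3.34 to 5.68, 8.12 and 5.92 (8.13-fold, adjusted p = 0.0144; 0.0507 without the narrow arrays and up to 0.084 without medium replicate 2 or untreated replicate 3 alone). AT4G36430 went from 3.15, 3.97 and 3.39 to 6.54, 7.65 and 4.5 (6.62-fold, adjusted p = 0.00338; 0.027 without the narrow arrays). The defensin gene PDF1.4 was uneven within its group, at 3.57 on medium replicate 1 but 6.60 and 7.01 on replicates 2 and 3 (log2 change 2.81 ± 0.70 SE, adjusted p = 0.0234), and its call ended without the narrow arrays (adjusted p = 0.128) or without medium replicate 2, medium replicate 3 or untreated replicate 2 (up to 0.129). UGT87A2, a glycosyltransferase, rose 6.2-fold (adjusted p = 0.00181) as 1 of 51 measured UDP-glycosyltransferases (1.96%). The call ended after quantile normalization (adjusted p = 0.0641), after cyclic loess and with only the compared arrays. Without the narrow arrays the median of the 51 was 0.11, against 0.06 over all probe sets. Without untreated replicate 1 alone 2 of the 51 were higher and 9 lower (9.03% and 10.2% of all probe sets were).

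AT1G70780 was at 5.92, 3.96 and 4.0 untreated and at 9.0, 9.07 and 8.4 on medium (18.3-fold, adjusted p = 2.65e-05; 2.90 without the narrow arrays, adjusted p = 0.000422). TBL39, of the trichome birefringence-like family whose members act on wall polysaccharide acetylation, rose from 4.41, 4.60 and 3.57 to 7.80, 7.44 and 7.98 (11.7-fold, adjusted p = 0.00136). A second gene of that family, TBL38, changed in the other direction, from 7.93, 4.79 and 4.40 to 3.12, 3.06 and 2.95, a log2 change of -2.66 ± 0.60 SE (adjusted p = 0.0124). It was -4.88 without the narrow arrays and -1.55 without untreated replicate 1 (adjusted p = 1.38e-06 and 0.00605).

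**Figure D3:**
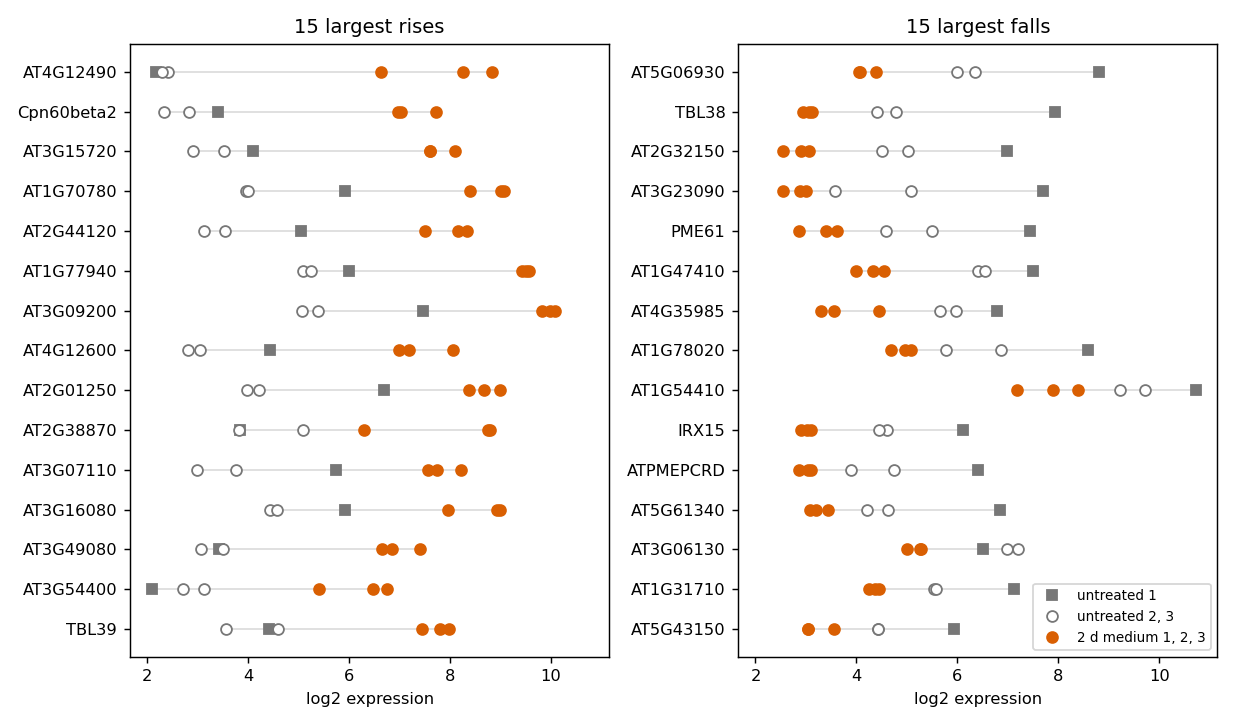
Log2 expression on the 3 untreated arrays (square for replicate 1, open circles for the narrow replicates 2 and 3) and the 3 medium arrays (filled circles) for 15 rises and 15 falls, those of greatest size with a single named gene. In the falls the square was the highest untreated value in 14 of 15 genes, AT3G06130 being the exception, and for many of them the medium values lie close to 3.09, the median of all values.

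Among the 15 largest falls were 4 genes that act on wall polysaccharides, TBL38, IRX15, PME61 and ATPMEPCRD, a grouping made after their values were seen. IRX15, which is needed for xylan synthesis in secondary walls, was at 6.12, 4.60 and 4.44 untreated and at 3.11, 3.02 and 2.91 on medium (log2 change -2.04 ± 0.35 SE, adjusted p = 0.00169). IRX15 was at -3.1 without the narrow arrays and at -1.51 without untreated replicate 1 (adjusted p = 0.00168 for the latter). Its close relative IRX15-L was at -1.34 without passing (adjusted p = 0.103) and passed without the narrow arrays (-2.82, adjusted p = 0.000205). GUT2, a xylan glycosyltransferase also called IRX10, was at -0.97 (adjusted p = 0.186). In the same list CSLC04, which makes the xyloglucan backbone of primary walls, rose 1.71-fold (adjusted p = 0.0485), a call that ended without the narrow arrays (0.26, adjusted p = 0.732) and without either of them or medium replicate 2 or 3 alone.

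Of 44 measured pectin methylesterase genes 2 rose and 2 fell (4.55% each, against 3.97% and 0.967% of all probe sets). Without untreated replicate 1 the falls were 9 (10.2% of all probe sets were lower there), and without untreated replicate 2 or any 1 medium array 1. PME61, also called PME35, fell from 7.44, 5.50 and 4.59 to 2.87, 3.61 and 3.4 (log2 change -2.55 ± 0.67 SE, adjusted p = 0.032), and ATPMEPCRD from 6.41, 4.74 and 3.9 to 3.05, 2.86 and 3.1 (-2.02 ± 0.40 SE, adjusted p = 0.00524). Their changes were -4.15 and -3.41 without the narrow arrays and -1.75 and -1.32 without untreated replicate 1 (adjusted p = 0.0624 and 0.00312). ATPMEPCRB and AT5G64640 rose by smaller amounts from untreated means under 3.09, with log2 changes of 1.11 ± 0.30 and 0.67 ± 0.18 SE (adjusted p = 0.0358 and 0.0341), and neither passed without the narrow arrays, or without either of them or medium replicate 2 or 3 alone. The call of PME61 ended without any one of the arrays except untreated replicate 3 (highest adjusted p 0.116). None of the 29 measured expansins and xyloglucan hydrolases, which loosen growing walls, passed in either direction, while without untreated replicate 1 alone 9 were lower (10.2% of all probe sets were) and 1 higher.

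Among probe sets with a single named gene AT5G06930 had the largest fall, from 8.80, 6.35 and 5.99 to 4.05, 4.38 and 4.07 (7.36-fold lower, -2.88 ± 0.53 SE, adjusted p = 0.00277). The broad array carried the highest of these values, and the change was -4.63 without the narrow arrays (adjusted p = 4.22e-05). Over the 15 falls the changes ran from -4.89 for AT3G23090 to -1.32 for AT3G06130 without the narrow arrays, and from -2.19 for AT1G47410 to -1.18 for AT5G61340 without untreated replicate 1. AT1G47410 had more even untreated values, 7.5, 6.40 and 6.55 against 4.54, 4.32 and 3.99 (5.8-fold lower, adjusted p = 0.000375), and was the one of these 15 falls that kept its call in all 14 other fits. AT3G23090, a gene of the microtubule-binding WDL family, fell by 2.65 on the log2 scale (adjusted p = 0.0419) and AT1G31710, a copper amine oxidase of the wall, fell 3.3-fold (adjusted p = 0.00706). AT2G32150, a hydrolase of the haloacid dehalogenase superfamily, fell by 2.66 on the log2 scale (adjusted p = 0.0257). AT4G35985, related to senescence-associated proteins, and AT1G78020, a zinc finger protein of the FLZ family, fell 5.17- and 4.48-fold (adjusted p = 0.000525 and 0.0485). The calls of AT3G23090 and AT1G78020 ended without any one of the arrays except untreated replicate 3 (highest adjusted p 0.116 and 0.142), and that of AT2G32150 without any 1 medium array (0.088).

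AT1G54410, the small dehydrin HIRD11, was among the most highly expressed of the genes that fell, at 10.72, 9.71 and 9.22 untreated and 8.38, 7.18 and 7.89 on medium (4.18-fold lower, -2.06 ± 0.57 SE, adjusted p = 0.0425). Its call ended without any one of the arrays except untreated replicate 3 (highest adjusted p 0.158). It was the only call among 7 measured late embryogenesis abundant genes (14.3% lower, against 0.967% of all probe sets). AT3G06130, a heavy-metal-associated protein gene, was the exception in the other direction, with the broad array lowest of the untreated values (6.50, 7.20 and 6.99 against 5.27, 5.26 and 5.00; -1.72 ± 0.31 SE, adjusted p = 0.00257), and its call ended without the narrow arrays (-1.32, adjusted p = 0.113). AT5G61340 and AT5G43150 fell 3.96- and 3.28-fold (adjusted p = 0.0103 and 0.00541).

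Of 9 measured genes for the light reactions and 4 of the Calvin cycle and photorespiration none passed, with median log2 changes of 0.02 and 0.60. The Calvin cycle median was -0.38 without the narrow arrays, -0.19 after cyclic loess and 0.08 after quantile normalization, so its direction was not settled. The untreated arrays disagreed on them. LHCB4.2, an antenna protein of photosystem II, was at 10.18, 8.39 and 6.99 untreated and at 7.79, 7.43 and 8.14 on medium (-0.73 ± 0.57 SE, adjusted p = 0.502). Without the narrow arrays LHCB4.2 (-2.40, adjusted p = 0.0086) and LHCB4.1 (-2.07, adjusted p = 0.0107) were lower, and the median of the light reactions was -0.89. Without untreated replicate 1 the median of the light reactions was 0.37, with 3 of the 9 higher and 0 lower. In that fit 9.03% of all probe sets were higher and 10.2% lower. With all arrays kept, quantile normalization called 2 of the 9 light reaction genes lower and cyclic loess 3, with 0 higher in either. Over all probe sets 2.73% and 2.15% were lower in these fits. The medians of the 9 were -0.36 and -0.53 there, against -0.04 and -0.02 over all probe sets. Of 69 measured plastid-encoded genes 0 rose and 2 fell (2.9%, against 0.967% of all probe sets), with a median of -0.09. psbC, for a core antenna protein of photosystem II, was one of them and lay at 6.78, 6.75 and 6.50 untreated and at 4.69, 5.21 and 5.45 on medium (-1.56 ± 0.41 SE, adjusted p = 0.0317). The other was atpF, for a subunit of the plastid ATP synthase (-1.57 ± 0.37 SE, adjusted p = 0.0167). Without untreated replicate 1 alone 3 of the 69 genes were higher and 7 lower (9.03% and 10.2% of all probe sets were). Without the narrow arrays the median of the plastid-encoded genes was -0.22, against 0.06 over all probe sets, with atpF at -2.87 and psbC at -1.67. Leaving out medium replicate 1 or 2 alone ended both calls, and either narrow sheath array that of psbC (highest adjusted p 0.0661 for atpF and 0.134 for psbC).

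**Figure D4:**
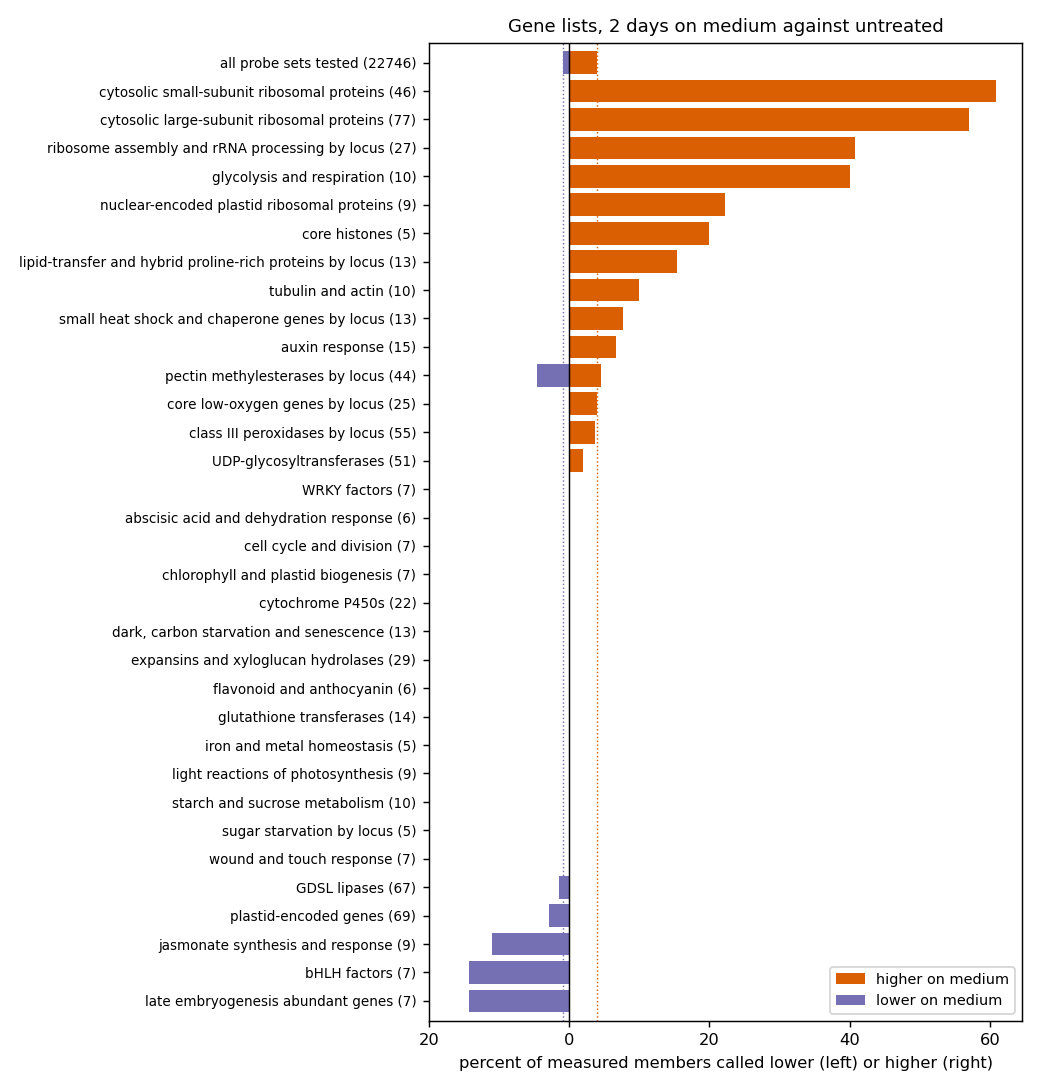
Percent of the measured members of each gene list (number in brackets, lists of at least 5 members) called higher or lower on medium at an adjusted p under 0.05. Dotted lines mark the shares over all probe sets, 3.97% higher and 0.967% lower; the cytosolic ribosomal protein lists reached 57.1% and 60.9% higher.

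Genes known to respond to auxin were measured by 15 named genes, of which 1 rose (6.67%, against 3.97% of all probe sets), 0 fell and 14 did not pass. Quantile normalization, cyclic loess and leaving out untreated replicate 1 each gave 2 falls beside the rise, and no gene passed without the narrow arrays. ARL, a relative of the organ growth gene ARGOS, was the one that rose, from 4.08, 3.3 and 3.73 to 6.33, 6.58 and 6.28 (6.46-fold, 2.69 ± 0.44 SE, adjusted p = 0.00137; 0.0516 without the narrow arrays). GH3.3, an enzyme that couples auxin to amino acids, was measured at 5.75, 4.90 and 4.03 untreated and at 2.56, 2.69 and 2.34 on medium. The arrays did not overlap, but the change of -2.36 ± 0.83 SE did not pass (adjusted p = 0.114; 0.0474 after quantile normalization). HAT2, an auxin-induced homeodomain gene, was at 8.11, 8.27 and 7.0 untreated and at 5.37, 6.18 and 5.31 on medium, again without overlap (-2.17 ± 0.66 SE, adjusted p = 0.0646; 0.00399 after quantile normalization).

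The other 12 auxin-responsive genes differed by at most 0.66 on the log2 scale, the value of IAA29, and by as little as 0.01 for LBD29. They were GH3.1, GH3.17, WES1 (GH3.5), AT1G14130, LBD16, LBD29 and the Aux/IAA genes IAA18, IAA20, IAA29, IAA30, IAA31 and IAA34, nearly all with mean levels close to or under 3.09. Changes at such levels cannot be told from background. On NAA for the same 2 days 5 of the 15 were higher than on medium (0.229% of all probe sets were), GH3.3 by 5.64 ± 0.83 SE (adjusted p = 0.00537), HAT2 by 3.71 ± 0.66 SE (adjusted p = 0.0181), IAA29 by 2.70 ± 0.56 SE (adjusted p = 0.0375), ARL by 2.14 ± 0.44 SE (adjusted p = 0.0384) and AT1G14130 by 1.34 ± 0.17 SE (adjusted p = 0.00198).

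**Figure D5:**
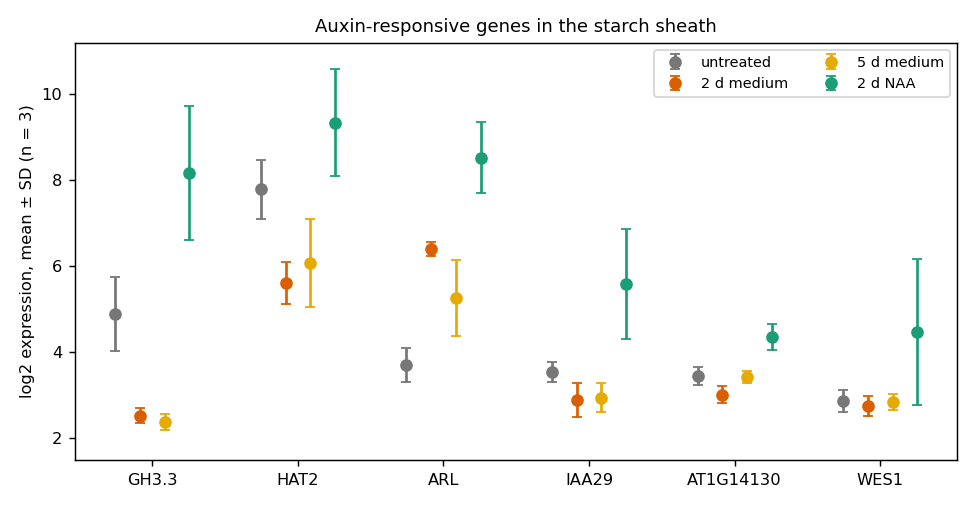
Mean log2 expression (± SD, n = 3 arrays) of 6 auxin-responsive genes in untreated starch sheath and after 2 days on medium, 5 days on medium and 2 days on NAA. GH3.3 and HAT2 stood at 4.89 and 7.79 untreated, 2.53 and 5.62 after 2 days on medium and 8.17 and 9.34 on NAA, while ARL stood at 3.71, 6.40 and 8.53.

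For several responses that cutting and culture can bring, few or no genes passed. Only part of each list was measured, and the rest was not tested. No gene passed among 7 measured of 31 of the wound and touch response, 10 of 54 of starch and sucrose metabolism and 14 of 49 glutathione transferases. The same held for 13 of 43 of carbon starvation and senescence and 22 of 240 cytochrome P450s. Without untreated replicate 1 alone 5 of the 22 P450s were lower (10.2% of all probe sets were). Quantile normalization called 1 gene higher and 1 lower in both the starch and the transferase list. Of the 13 starvation genes 2 were lower without the narrow arrays and their median moved from -0.02 to -1.12, against 0.35 and 0 lower without untreated replicate 1. A separate list of 5 sugar starvation genes had no call and a median of -0.45. Quantile normalization and cyclic loess each called 2 of these 5 lower and 0 higher, with medians of -0.94 and -0.93. Over all probe sets 2.73% and 2.15% were lower in these fits. The median of the 5 was -1.03 without the narrow arrays and -0.37 without untreated replicate 1. Of 9 jasmonate genes 1 fell by a small amount, AT3G11180 (-0.47 ± 0.11 SE, adjusted p = 0.0169), 11.1% against 0.967% of all probe sets. Of 25 low-oxygen genes 1 rose, AT1G33055 (1.71 ± 0.46 SE, adjusted p = 0.0377), 4.0% against 3.97%. Quantile normalization called 2 of the 25 higher and 2 lower (5.03% and 2.73% of all probe sets were). Cyclic loess called 0 of them higher and 2 lower (2.82% and 2.15% of all probe sets were). Small falls at levels near 3.09 were called for the glucosinolate gene AOP3 (-0.77 ± 0.18 SE), the GDSL lipase AT1G29660 (-0.53 ± 0.15 SE) and the transcription factor bHLH34 (-0.50 ± 0.12 SE). The calls of AT3G11180, AT1G33055, AOP3, AT1G29660 and bHLH34 each ended with 2 or more of the 6 arrays left out singly (highest adjusted p 0.0854, 0.143, 0.0967, 0.164 and 0.0715). SBE2.2, a starch branching enzyme, was at 1.55 ± 0.45 SE without passing (adjusted p = 0.0541). AKINBETA1, a regulatory subunit of the sugar-sensing kinase SnRK1, went from 7.0, 5.08 and 4.06 to 3.66, 3.23 and 3.65 without passing (adjusted p = 0.0724), and was lower without the narrow arrays (-3.48, adjusted p = 0.00311).

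The captured layer itself could be checked with few genes. Of the fixed markers of the starch sheath and endodermis only JKD and AT5G41920, the gene of SCARECROW-LIKE 23, had a named probe set. JKD, a ground tissue zinc finger, was at 3.21, 4.25 and 4.48 in the untreated sheath, against a mean of 2.97 in the untreated stem, and at 2.95, 2.84 and 3.33 on medium (-0.94 ± 0.27 SE, adjusted p = 0.0505). On the broad untreated array it lay near the median of all values, and without that array it was lower on medium (-1.33, adjusted p = 0.000939). AT5G41920 was at 4.28, 4.1 and 3.87 untreated and at 4.91, 4.60 and 4.46 on medium (0.57 ± 0.17 SE, adjusted p = 0.0545). With levels this low the label of the layer is neither borne out nor contradicted by its markers here.

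Of the markers of neighbouring cells, the phloem genes CLE41 and CLE44 and the cambium genes LHW, MOL1 and PHV were measured, and none of the 5 passed. Without untreated replicate 1 alone 1 phloem and 1 cambium gene were higher and 0 lower (9.03% and 10.2% of all probe sets were). Quantile normalization called 1 cambium gene higher (5.03% of all probe sets were). CLE41, a phloem peptide gene, ranged from 4.05 to 5.74 untreated and from 5.16 to 6.14 on medium, and LHW, a vascular transcription factor gene, from 3.52 to 3.93 and from 4.56 to 4.90 (adjusted p = 0.188 and 0.0566). MOL1 lay between 2.77 and 3.24 on all 6 arrays. No fixed marker of the epidermis, the xylem or the photosynthetic cortex had a named probe set, so the share of those cells in the captured tissue was not tested.

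Few probe sets passed the adjusted threshold between 2 days on medium and the other cultured groups. These comparisons share the 2-day medium arrays with the changes above, so each is given by its own values. Between NAA and medium at 2 days 52 probe sets were higher (0.229%) and 35 lower (0.154%), and between 5 and 2 days on medium 33 were higher (0.145%) and 36 lower (0.158%). At an unadjusted limma p under 0.05 there were 2287 for NAA and 1863 for 5 days. Among the 123 cytosolic ribosomal protein genes 2 were higher on NAA than on medium, AT3G53430 of the L12 family (1.36 ± 0.27 SE, adjusted p = 0.0276) and AT4G02230 of the L19 family (1.89 ± 0.40 SE, adjusted p = 0.0411), and neither had passed between medium and untreated. They were singled out after their values were seen. The median difference of the 123 between NAA and medium was 0.46, against -0.06 over all probe sets.

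At 5 days on medium 2 of the ribosomal protein genes that had risen stood lower than at 2 days. AT1G77940 had a mean of 5.45 untreated, 9.5 at 2 days and 7.74 at 5 days (-1.76 ± 0.30 SE from 2 to 5 days, adjusted p = 0.0145), and AT3G10610 means of 3.5, 6.58 and 4.89 (-1.69 ± 0.34 SE, adjusted p = 0.0338). The median difference of the 123 genes from 2 to 5 days was -0.31, against -0.02 over all probe sets. TBL39 went from 4.2 untreated to 7.74 at 2 days and 4.69 at 5 days (-3.05 ± 0.58 SE, adjusted p = 0.0273). The peroxidase AT4G36430 was high on the 2-day medium arrays alone among the sheath groups, with means of 3.5 untreated, 6.23 at 2 days, 3.65 at 5 days and 3.18 on NAA (-2.58 ± 0.51 SE and adjusted p = 0.0338 for 5 days, -3.05 ± 0.51 SE and adjusted p = 0.0139 for NAA). The dehydrin AT1G54410 fell on medium but had a mean of 10.73 on NAA, 2.91 ± 0.57 SE above medium (adjusted p = 0.0282).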

How the data were processed

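The authors deposited a single table of normalized log2 expression values from Affymetrix ATH1 arrays, ranging from 1.73 to 14.67 with control probe sets. RMA and limma appear, without versions, per the submitters' processing notes; the log base is not written in the table and was taken as log2, which RMA gives. Per the labels' protocols, RNA from laser-captured sections of 5 µm was amplified in a pair of rounds, which starts at the 3' end. Per the labels the 3 arrays of a group are biological replicates, and the number of plants behind each is not stated in the labels. The p-values and SE rest on a spread pooled within groups over all 24 arrays, which may be partly technical. They do not reflect the spread of the compared groups alone.

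Of 22810 probe sets 64 are controls; of the rest 13513 name 1 gene in the platform annotation, 503 several and 8730 none, and 13436 matched a locus of TAIR10.1. A gene with several probe sets is represented by the one with the highest mean. Ribosomal protein families hold near-identical genes whose probes may share RNA.

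A limma 3.58.1 model (R 4.3.3) with 1 mean per group over all 24 arrays and eBayes was fitted (prior degrees of freedom 2.55, residual 16), two-sided, with Benjamini-Hochberg adjustment over 22746 probe sets, a threshold of 0.05 and no minimum fold. Probe sets with a mean of at least 6 over all arrays were also summarised apart, a split made after the values were seen and not independent of the changes. The script was tested on simulated data. No intensities, detection calls or scanner files were used.

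Named were the 15 rises and 15 falls of greatest size with 1 gene and non-overlapping arrays, up to 4 called members with the smallest p of each list, and every measured gene of the sheath identity and auxin lists; genes named beyond this rule, such as uncalled list members given for comparison, were chosen after their values were seen. The comparison, the members and the lists were chosen with earlier results of these data known, 26 lists by locus were added once the annotation's coverage was known, and 5 list entries were dropped because their symbol belongs to another gene. The alternatives were only the 6 compared arrays, a replicate block, cyclic loess, quantile normalization, array weights, a robust prior with an intensity trend, a filter on dim probe sets, no narrow arrays and leaving out each array in turn.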

Additional observations from a re-analysis of the deposited data

Results flagged for a closer look

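Changes from untreated at 2 days on medium were flagged where the direct difference to NAA or to 5 days passed the adjusted threshold of 0.05 in limma. From 2 to 5 days on medium the difference was -1.76 for AT1G77940, -1.69 for AT3G10610, -3.05 for TBL39 and -2.58 for the peroxidase AT4G36430, on the log2 scale. Between NAA and medium at 2 days it was -3.05 for AT4G36430, -1.0 for the pectin methylesterase gene AT5G64640, 2.14 for ARL and 2.91 for the dehydrin AT1G54410. These are 8 of the differences computed over 65 called genes in both comparisons. No array was tested as an outlier.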

How the results depend on the processing

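Of 1124 probe sets called between medium and untreated, the count was 154 with only the 6 compared arrays, 1765 after quantile normalization, 2890 with array weights and 622 to 4376 when each array in turn was left out. The largest count came without untreated replicate 1 (2055 higher, 2321 lower) and the smallest without untreated replicate 2 (465 and 157); without medium replicate 3 it was 708 and without medium replicate 2 it was 768. Cyclic loess, the intensity trend, the filter on dim probe sets and the fit without the narrow arrays gave 1130, 1102, 1316 and 1202 calls. Deviations from the group means correlated at 0.158, 0.267 and -0.13 for same-numbered arrays and at -0.344 to 0.265 for the others. With 3 arrays a group these values do not settle whether replicate numbers pair the samples. The replicate block gave 1200 calls. For NAA against medium (87 calls) the count was 2 with the compared arrays only, 149 with cyclic loess, 225 without the narrow arrays, 495 with array weights and 10 to 101 with an array left out; the replicate block gave 92. For 5 against 2 days on medium (69 calls) these were 112, 169, 150, 477 and 18 to 48, with 171 after quantile normalization and 86 with the block. The 65 called genes named in the text kept their call in 20 cases with the 6 arrays, 44 without the narrow arrays, 53 with cyclic loess and 65 with the block; 41 kept it with every array left out in turn and 18 under all 14 alternatives. Among these 65 genes no called change turned sign in these fits. The cause of these shifts was not tested. Without detection calls, 116 of the higher probe sets had an untreated mean and 114 of the lower ones a medium mean under 3.09.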
